A study of Mus musculus with 9 samples.

Results

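A set of 9 metalloprotease genes and 1 metalloprotease inhibitor gene was followed across mouse myeloid RNA libraries: the matrix metalloproteinases Mmp8, Mmp9, Mmp14, Mmp19 and Mmp25, the membrane proteases Adam8, Adam10, Adam17 and Adam19, and the tissue inhibitor Timp2. These are 10 of the 54532 genes in the deposited table. They were named as a list of proteases of neutrophils and monocytes and chosen on the FPKM values of these same fl, KO and Gr_1 libraries, which were already known, so their levels and differences in the fl, KO and Gr_1 libraries are given as a description with no test. Test values are given only for other genes; for the 10 genes only the number of calls is printed, beside the share called among all genes, and nothing is read from it. The series holds 9 libraries in 3 groups of 3, lettered A, B and C. All came from C57BL/6 mice of 6 to 8 weeks, and the labels describe white cells of the myeloid type. The groups titled fl and Gr_1 are labelled wild type, and the group titled KO is labelled a knockout of SOCS3, the feedback inhibitor of STAT3 signalling. What the titles fl and Gr_1 stand for, the tissue, the sort, the part of Socs3 that was targeted and the cells that lost it are not stated in the labels. The labels do not say whether the letters are separate animals, so SDs and p-values measure the spread between these libraries, which may be technical in fl and Gr_1; in KO, libraries A and B differ in sex-linked transcripts (below) and are not 1 animal.

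Matrix metalloproteinases are zinc enzymes that are made as inactive precursors and cut collagens, gelatin and other proteins outside the cell. ADAM proteases sit in the plasma membrane, and several of them release cytokines, receptors and adhesion proteins from the cell surface. Neutrophils store MMP8 and MMP9 in cytoplasmic granules that are filled while the cells mature in the marrow, so transcript and stored protein can be present at different stages. TIMP proteins bind the active sites of these enzymes and block them.

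The level of each gene was taken in FPKM, fragments per kilobase of transcript scaled by a depth value for each library. Fragment counts recovered from these values came to between 18.3 M and 21.5 M per library. The lowest level that 3 fragments allow for a transcript of 1 kb was between 0.136 and 0.187 FPKM. Socs3 itself was at 3.76 ± 0.318 FPKM in fl, 8.12 ± 1.25 in KO and 35.5 ± 2.21 in Gr_1 (SD, n = 3 libraries here and below). It was therefore higher, not lower, in the libraries labelled KO (log2 change 0.93 against fl, limma adjusted p = 0.00136). Reads outside a deleted stretch would still count, so this level does not check the label, and KO below means the libraries labelled KO. Lyz2, the lysozyme gene of myeloid cells, was at 9165 ± 725 FPKM in fl, 56.3 ± 3.30 in KO and 10663 ± 163 in Gr_1. In KO, library C lay close to the average of libraries A and B. Over the 337 genes in which KO A and KO B differed by at least 1 log2 unit, KO C lay between them in 86.6%, against 47.3% to 69.3% for the other libraries between their own group mates. The summed level of 4 Y-linked genes was 26.5 FPKM in KO A, 0 in KO B and 14.2 in KO C, and Xist was at 0.00280, 58.5 and 26.3 FPKM. In the 6 fl and Gr_1 libraries the Y-linked sum was between 16.6 and 39.3 FPKM and Xist at most 0.0104, so female RNA was seen in KO B and KO C only. Sex thus differed between KO and both wild type groups as well as within KO, and its part in the results was not tested. KO A, which matched fl and Gr_1 in these transcripts, lay above all fl and below all Gr_1 libraries for Mmp8, Mmp9, Mmp25, Adam8, Adam19 and Timp2. It was also the highest KO library for each of these genes. It is 1 library, so nothing about sex is read from it. Whether KO C shares material with the other libraries was not tested, and several counts and values below are therefore also given without KO C. The other values for KO include it.

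RefSeq promoter windows of the GRCm38.p6 build, each covering 250 bases before to 50 bases after a transcription start, were found for 8 of the 10 genes. Mmp9 and Mmp19 had no entry. The windows of Mmp8, Adam8 and Adam10 are shown because, among the genes with a window, Mmp8 and Adam8 had the largest fitted differences between Gr_1 and fl, while Adam10 hardly varied. Capitals mark matches, on either strand, to 3 of the 6 motifs searched: C/EBP (TTGCNNAA), PU.1 (GAGGAAGT) and the GC box (GGGCGG).
Mmp8, chr9:7558179-7558478, plus strand: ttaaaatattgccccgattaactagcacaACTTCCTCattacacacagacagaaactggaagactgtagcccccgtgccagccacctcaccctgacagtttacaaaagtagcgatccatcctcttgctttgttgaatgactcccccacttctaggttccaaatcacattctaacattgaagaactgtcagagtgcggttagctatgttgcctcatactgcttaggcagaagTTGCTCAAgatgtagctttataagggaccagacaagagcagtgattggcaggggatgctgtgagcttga
Adam8, chr7:139992513-139992812, minus strand: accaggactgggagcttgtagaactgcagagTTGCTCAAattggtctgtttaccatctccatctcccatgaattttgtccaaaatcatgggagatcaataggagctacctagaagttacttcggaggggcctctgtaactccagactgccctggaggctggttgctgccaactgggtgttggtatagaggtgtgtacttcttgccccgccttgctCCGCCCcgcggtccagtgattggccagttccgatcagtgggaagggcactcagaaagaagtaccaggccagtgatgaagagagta
Adam10, chr9:70678732-70679031, plus strand: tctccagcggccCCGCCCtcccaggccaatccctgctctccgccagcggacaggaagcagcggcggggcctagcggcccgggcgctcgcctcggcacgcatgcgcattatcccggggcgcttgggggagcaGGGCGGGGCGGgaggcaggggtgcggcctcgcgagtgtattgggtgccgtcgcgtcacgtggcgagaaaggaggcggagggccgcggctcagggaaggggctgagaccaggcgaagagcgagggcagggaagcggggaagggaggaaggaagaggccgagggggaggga

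The Mmp8 window held a C/EBP match (TTGCTCAA) whose first base lay 19 bases before the start, and a PU.1 match on the reverse strand 221 bases before it. The same 8 letters stood 219 bases before the start of Adam8. The C/EBP motif occurs in 10.8% and the PU.1 motif in 3.20% of the 32851 promoter windows of this length in the table. Among the 8 genes, only the windows of Mmp8 and Adam8 matched C/EBP and only that of Mmp8 matched PU.1. The Adam10 window held 3 GC boxes, of which the last 2 overlap by their ends, and no other match. GC boxes occur in 35.7% of all windows and stood in those of Mmp14, Mmp25, Adam8, Adam10, Adam17, Timp2 and 1 of the 3 windows of Adam19. The AP-1 motif (TGANTCA, 7.81% of all windows) matched only that same Adam19 window, and the STAT (TTCNNNGAA, 8.30%) and NF-kB (GGG and TTTCC with any 2 bases between, 1.63%) motifs matched none of the 10 windows. The Mmp8 window had the lowest GC content, 46.0% with 4 CpG dinucleotides, and the Adam10 window the highest, 73.3% with 32 CpG, around medians of 52.7% and 7 over all windows. A match is a string of letters, not a measured binding site.

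Mmp9 and Mmp8, the gelatinase and the collagenase of neutrophil granules, had the widest range of all 10 genes. Both stood lowest in fl, higher in KO and far higher in Gr_1, with no overlap between any groups. Mmp9 lies on chromosome 2 (164940780 to 164955850, plus strand, GRCm38). It was at 15.7, 12.3 and 12.1 FPKM in fl A, B and C, at 296, 132 and 216 FPKM in KO, and at 1660.4, 1729.8 and 1472 FPKM in Gr_1. Each KO library was above each fl library and below each Gr_1 library. The mean Mmp9 level was 13.4 ± 2.05 FPKM in fl, 215 ± 81.9 in KO and 1621 ± 133 in Gr_1, which made KO 16.0-fold and Gr_1 121-fold higher than fl. On the log2(FPKM + 1) scale the fitted difference from fl was 3.84 ± 0.25 (SE) for KO and 6.82 ± 0.25 for Gr_1. These values rest on between 790 and 1226 fragments per library in fl and between 83450 and 111146 in Gr_1.

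Mmp8, on chromosome 9 (7558456 to 7568485, plus strand), was at 23.7, 22.2 and 17.2 FPKM in fl, 233, 97.6 and 159 FPKM in KO, and 1145, 1197 and 1126 FPKM in Gr_1. The order of the groups was that of Mmp9, but the steps were smaller. The mean Mmp8 level was 21.0 ± 3.37 FPKM in fl, 163 ± 68.0 in KO and 1156 ± 37.2 in Gr_1, a 7.76-fold difference between KO and fl and a 54.9-fold difference between Gr_1 and fl. The fitted log2 difference of Mmp8 from fl was 2.82 ± 0.27 for KO and 5.73 ± 0.27 for Gr_1. Mmp8 therefore exceeded Mmp9 in each fl library, and Mmp9 exceeded Mmp8 in each KO and Gr_1 library. The ratio of the 2 FPKM values, Mmp9 over Mmp8, ran from 0.555 to 0.700 in fl, from 1.27 to 1.36 in KO and from 1.31 to 1.45 in Gr_1. KO and Gr_1 overlapped in this ratio while fl stood apart from both.

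Mmp25 encodes a membrane-anchored metalloproteinase known from neutrophils. The gene lies on chromosome 17 (23628311 to 23645277, minus strand). It was at 10.8, 10.1 and 9.44 FPKM in fl, 35.8, 21.1 and 28.5 FPKM in KO, and 129.7, 132 and 117 FPKM in Gr_1. Its groups kept the order fl, KO, Gr_1 with no overlap. The mean Mmp25 level was 10.1 ± 0.690 FPKM in fl, 28.5 ± 7.32 in KO and 126 ± 8.22 in Gr_1. KO was 2.81-fold and Gr_1 12.5-fold above fl, smaller ratios than those of either granule enzyme.

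**Figure D1:**
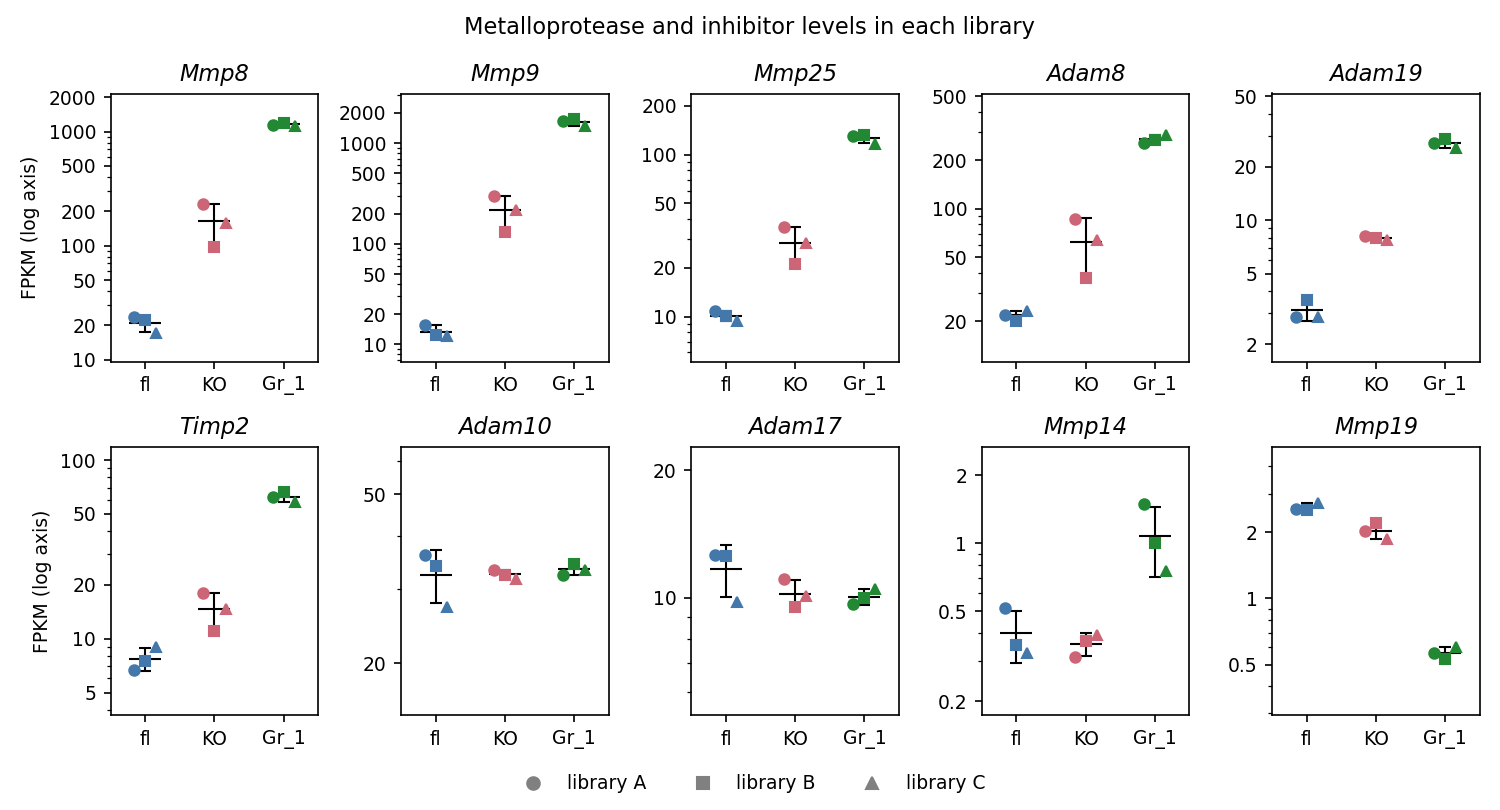
FPKM of each of the 10 genes in each library on a log axis, 1 panel per gene, with circles, squares and triangles for libraries A, B and C of fl, KO and Gr_1, and lines for the mean and SD. Mmp8, Mmp9, Mmp25, Adam8, Adam19 and Timp2 step up from fl to KO to Gr_1, Mmp19 steps down, Adam10 and Adam17 overlap, and Mmp14 is higher in Gr_1 alone.

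Adam8 and Adam19 followed the same order of groups as the neutrophil metalloproteinases. Adam8, a leukocyte surface protease, lies on chromosome 7 (139978932 to 139992562, minus strand). It was at 21.8, 20.1 and 23.3 FPKM in fl, 86.6, 37.4 and 63.9 FPKM in KO, and 255, 267 and 289.9 FPKM in Gr_1. The lowest KO library was KO B, still above all fl libraries. The means were 21.7 ± 1.60, 62.6 ± 24.6 and 271 ± 17.5 FPKM, so that Adam8 was 2.88-fold higher in KO and 12.5-fold higher in Gr_1 than in fl. The fitted log2 differences of Adam8 from fl were 1.41 ± 0.25 for KO and 3.58 ± 0.25 for Gr_1.

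Adam19, which encodes the membrane protease meltrin beta, lies on chromosome 11 (46055992 to 46147343, plus strand). Its level was 2.86, 3.57 and 2.87 FPKM in fl, 8.17, 7.93 and 7.75 FPKM in KO, and 27.2, 28.9 and 25.7 FPKM in Gr_1. The KO libraries were almost level for Adam19, unlike for the genes above. Their coefficient of variation was 2.62%, against 41.7% for Mmp8, 38.1% for Mmp9, 39.3% for Adam8, 25.7% for Mmp25 and 24.0% for Timp2. KO A exceeded KO B by 2.39-fold for Mmp8, 2.24-fold for Mmp9, 2.32-fold for Adam8, 1.69-fold for Mmp25 and 1.64-fold for Timp2, and by 1.03-fold for Adam19. The mean Adam19 level was 3.10 ± 0.410 FPKM in fl, 7.95 ± 0.208 in KO and 27.2 ± 1.59 in Gr_1, or 2.56-fold and 8.79-fold above fl.

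Timp2, the inhibitor in the list, lies on chromosome 11 (118301069 to 118355740, minus strand). Besides inhibiting metalloproteinases, the TIMP2 protein takes part in the activation of MMP2 by MMP14. It was at 6.72, 7.49 and 9.04 FPKM in fl, 18.0, 11.04 and 14.7 FPKM in KO, and 61.9, 66.1 and 58.0 FPKM in Gr_1. Its groups did not overlap, and the gap between fl and KO was the narrowest among the 6 genes that were higher in KO. The means were 7.75 ± 1.18, 14.6 ± 3.51 and 62.0 ± 4.01 FPKM, which put KO 1.88-fold and Gr_1 8.00-fold above fl. The fitted log2 difference of Timp2 from fl was 0.82 ± 0.16 for KO and 2.85 ± 0.16 for Gr_1.

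Adam10 and Adam17, the general sheddases that release Notch, cytokine and adhesion proteins in many cell types, were close to level across the groups. Adam10 (chromosome 9, 70678997 to 70780229, plus strand) was at 36.0, 33.9 and 27.2 FPKM in fl, 33.2, 32.3 and 31.6 FPKM in KO, and 32.4, 34.2 and 33.2 FPKM in Gr_1. All 3 groups overlapped, and the fl libraries spread furthest. The fitted log2 difference of Adam10 from fl was 0.01 ± 0.10 for KO and 0.05 ± 0.10 for Gr_1. The sign of the Gr_1 value turned, to -0.05, when FPKM were rescaled without the 10 most abundant genes, and to -0.09 with quantile normalization.

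Adam17 (chromosome 12, 21323509 to 21373632, minus strand) was at 12.6, 12.6 and 9.80 FPKM in fl, 11.1, 9.51 and 10.1 FPKM in KO, and 9.69, 9.98 and 10.5 FPKM in Gr_1. Its groups overlapped as well, but fl overlapped the others only through fl C. Both fl A and fl B lay above all KO and Gr_1 libraries. The fitted log2 difference of Adam17 from fl was -0.17 ± 0.10 for KO and -0.19 ± 0.10 for Gr_1. With 1 library left out it reached -0.28 for KO and -0.30 for Gr_1 at the lowest. Adam17 shares 311 of its 7154 exon bases with Iah1, and no label says whether counting used the strand. The FPKM ratio of Adam10 to Adam17 was 2.77 ± 0.0758 in fl, 3.17 ± 0.205 in KO and 3.31 ± 0.141 in Gr_1.

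Mmp19 was the member that ran the other way. It encodes a metalloproteinase of tissue macrophages and other cells, on chromosome 10 (128790910 to 128800824, plus strand). It was at 2.55, 2.52 and 2.72 FPKM in fl, 2.02, 2.21 and 1.87 FPKM in KO, and 0.565, 0.530 and 0.601 FPKM in Gr_1. The fl libraries were above all KO libraries, which were above all Gr_1 libraries. The means of Mmp19 were 2.60 ± 0.111, 2.04 ± 0.170 and 0.565 ± 0.0354 FPKM, so that fl exceeded KO by 1.28-fold and Gr_1 by 4.60-fold. The fitted log2 difference between Gr_1 and fl was -1.20 ± 0.08 with 1 FPKM added to each value, -2.02 with 0.1 FPKM added and -2.21 from recovered fragments with voom. The Gr_1 libraries held between 32 and 34 Mmp19 fragments each. Mmp19 shares 789 of its 3533 exon bases with Tmem198b, which was at 1.76, 1.44 and 1.43 FPKM in fl, KO and Gr_1.

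Mmp14 encodes a membrane-bound collagenase of stromal cells and macrophages, on chromosome 14 (54431612 to 54445364, plus strand), and was barely detected. It was at 0.519, 0.356 and 0.327 FPKM in fl, 0.312, 0.370 and 0.393 FPKM in KO, and 1.49, 1.01 and 0.754 FPKM in Gr_1. The fl and KO libraries overlapped, and all Gr_1 libraries were above both. These levels rest on between 36 and 68 fragments in fl, between 37 and 51 in KO and between 72 and 142 in Gr_1. Mmp14 reached 1 FPKM in 2 libraries only and was the 1 member that did not pass the filter on low values, so it has no fitted value. The ratio of its mean in Gr_1 to that in fl was 2.70. A stromal list of 11 fibroblast and endothelial genes summed to between 6.39 and 7.43 FPKM in fl, 9.78 and 11.4 in KO, and 12.3 and 14.8 in Gr_1, with 6 of the 11 never at 1 FPKM; its part in the Mmp14 level was not tested.

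**Figure D2:**
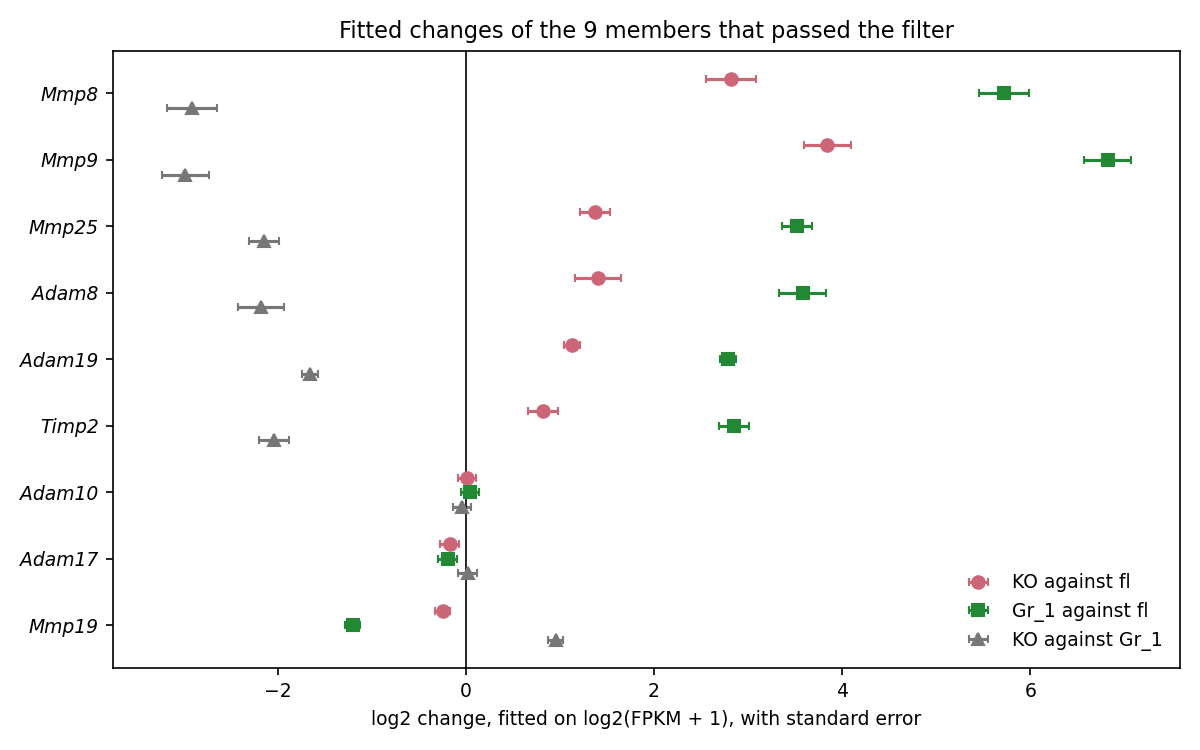
Fitted log2 differences with SE of the 9 members that passed the filter, for KO against fl, Gr_1 against fl and KO against Gr_1, drawn as a description with no test. The Gr_1 against fl values run from 6.82 for Mmp9 to -1.20 for Mmp19, and Adam10 and Adam17 lie near 0 in all comparisons.

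The counts of members are set beside those of all 12289 genes that reached 1 FPKM in at least 3 libraries. For KO against fl, 6 of the 9 members that passed this filter were called higher at a limma adjusted p under 0.05 and 0 lower, where 4.48% of all genes were called higher and 6.52% lower. The 3 not called were Adam10, Adam17 and Mmp19. Without KO C the count was 5, with Timp2 no longer called, and it was 5 as well without fl A and without fl B. In Gr_1 against fl, 6 were called higher and 1 lower (2 lower without fl C), beside 30.0% of all genes called higher and 31.4% lower. In KO against Gr_1, 1 was called higher and 6 lower, beside 26.7% of all genes higher and 28.9% lower. These comparisons share libraries and were known when the members were named, so nothing is read from the counts. The median log2 difference of the 9 members from fl was 1.13 for KO and 2.85 for Gr_1, and that of all genes tested was -0.01 and -0.03.

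Counted over all 10 members, the KO and fl libraries did not overlap in 7, with 6 higher in KO and Mmp19 lower, while 13.5% of all genes tested were higher and 17.9% lower with no overlap. The Gr_1 and fl libraries did not overlap in 8 members, 7 higher and 1 lower, beside 32.7% of all genes higher and 34.8% lower. The KO and Gr_1 libraries did not overlap in 8 either, 1 higher in KO and 7 lower, beside 33.6% of all genes higher and 34.6% lower. KO C lay near the mean of KO A and KO B for every member, so leaving it out could hardly move their values. The values without KO C are therefore no independent check. Without it the log2 difference between KO and fl was 3.80 for Mmp9, 2.80 for Mmp8, 1.36 for Mmp25, 1.35 for Adam8, 1.15 for Adam19, 0.80 for Timp2 and -0.21 for Mmp19. The level of each member in KO C was between 0.885 times (Mmp19) and 1.15 times (Mmp14) the mean of KO A and KO B.

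The make-up of the protease transcripts differed between the groups. The FPKM of the 9 proteases, Timp2 left out, summed to 116 ± 10.8 in fl, 522 ± 183 in KO and 3246 ± 163 in Gr_1. Mmp8 and Mmp9 together made up 29.5 ± 1.62% of that sum in fl, 71.5 ± 3.78% in KO and 85.5 ± 0.902% in Gr_1. Adam10 and Adam17 together made up 37.7 ± 2.23% in fl, 8.87 ± 3.09% in KO and 1.34 ± 0.0732% in Gr_1. Since the FPKM of these 2 sheddases stayed near one level, their share shrank with the growth of the sum. The FPKM ratio of the inhibitor Timp2 to Mmp9 was 0.595 ± 0.161 in fl, 0.0709 ± 0.0115 in KO and 0.0383 ± 0.00107 in Gr_1.

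**Figure D3:**
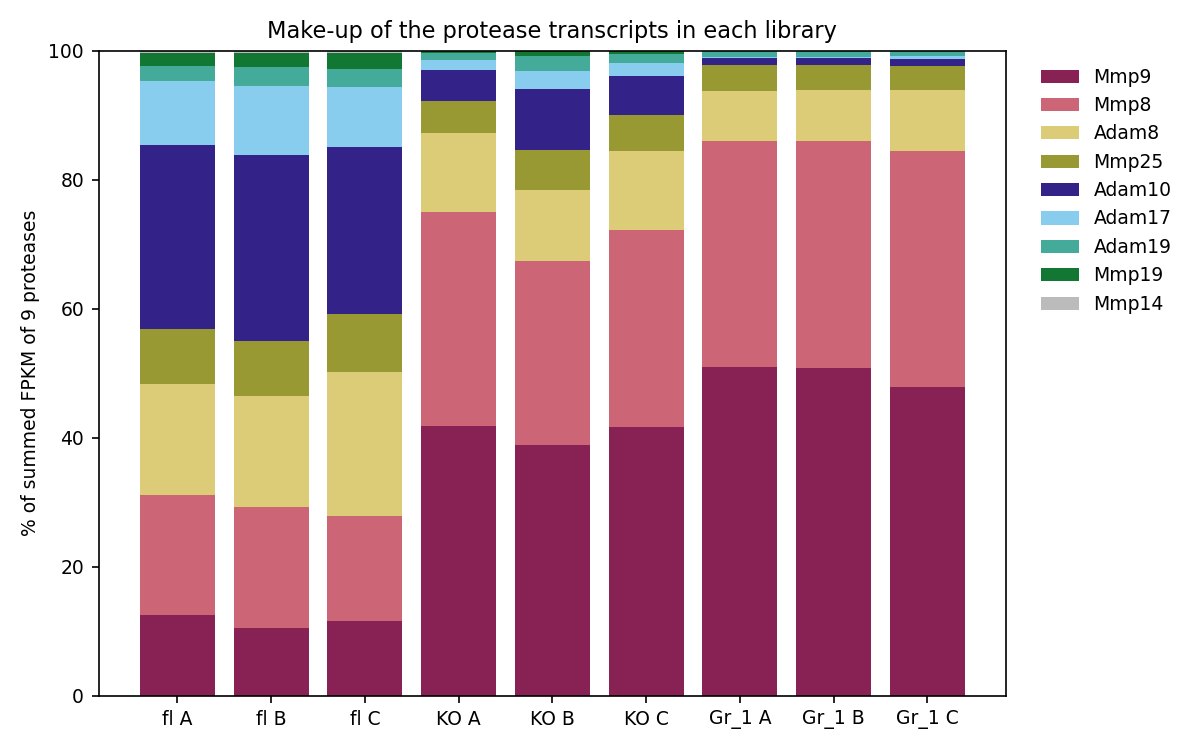
Share of the summed FPKM of the 9 proteases held by each gene, in percent, in each of the 9 libraries. Mmp8 and Mmp9 fill 29.5% of the sum in fl on average and 85.5% in Gr_1, while Adam10 and Adam17 go from 37.7% to 1.34%.

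The order of the genes by FPKM within a group, which is a scale per length, shifted accordingly. In fl, Adam10 was highest, followed by Adam8 and Mmp8, then Mmp9, Adam17 and Mmp25, then Timp2, Adam19, Mmp19 and Mmp14. The libraries of Adam8 and Mmp8 overlapped there, as did those of neighbours among Mmp9, Adam17 and Mmp25. In KO, Mmp9 and Mmp8 came first and overlapped, followed by Adam8, then Adam10 and Mmp25, then Timp2 and Adam17, then Adam19, Mmp19 and Mmp14. Adam10 and Mmp25 overlapped in KO, and so did Timp2 and Adam17. In Gr_1 the order was Mmp9, Mmp8, Adam8, Mmp25, Timp2, Adam10, Adam19, Adam17, Mmp14 and Mmp19, with no overlap between neighbours.

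The late neutrophil markers, and at far lower levels erythroid and platelet markers and the stromal list above, moved with the 6 genes that were higher in KO and Gr_1. The summed T cell markers also stood above fl in both groups. In these bulk libraries fewer cells of a type and less RNA per cell cannot be told apart. The 14 markers of the late neutrophil list summed to between 44172 and 46489 FPKM in fl, 48586 and 70926 in KO, and 124939 and 128899 in Gr_1. Between KO and fl, 10 of the 14 rose and 0 fell by limma (8 rose without KO C), and in Gr_1 against fl all 14 rose. Beside these and the marker counts below, 4.48% of all genes tested were called higher and 6.52% lower in KO against fl. In Gr_1 against fl these shares were 30.0% and 31.4%. Within KO the sum was 70926 in KO A, 48586 in KO B and 57229 in KO C, the order of the KO libraries for Mmp8, Mmp9, Adam8, Mmp25 and Timp2. Ly6g, the surface antigen used to mark mouse neutrophils, was at 11.4, 10.4 and 8.21 FPKM in fl, 152, 62.0 and 108 in KO, and 706, 715 and 633 in Gr_1. The 10 erythroid and platelet genes summed to between 48.1 and 66.8 FPKM in fl, 99.1 and 106 in KO, and 138 and 185 in Gr_1, and 9 of them rose and 0 fell in Gr_1 against fl. The part of any of these lists in the members' levels was not tested.

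Set against Ly6g, the members did not behave as a block. The FPKM ratio of Mmp9 to Ly6g was 1.35 ± 0.145 in fl, 2.03 ± 0.0937 in KO and 2.37 ± 0.0483 in Gr_1. That of Mmp8 to Ly6g was 2.11 ± 0.0289, 1.53 ± 0.0509 and 1.69 ± 0.0795. Both ratios varied far less over the groups than the levels of the granule enzymes did. The ratio of Adam8 to Ly6g was 2.23 ± 0.530 in fl, 0.589 ± 0.0169 in KO and 0.398 ± 0.0524 in Gr_1. Mmp25, Timp2 and Adam19 also had their highest ratio to Ly6g in fl and their lowest in Gr_1, from 1.03 to 0.185 for Mmp25, from 0.804 to 0.0906 for Timp2 and from 0.315 to 0.0398 for Adam19. These ratios come from the same libraries that chose the members and carry no test.

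Monocyte markers moved with Mmp19, and so did the sums of the macrophage and dendritic lists. The 14 genes of the monocyte list summed to between 1497 and 1732 FPKM in fl, 938 and 952 in KO, and 629 and 724 in Gr_1. Between KO and fl 11 of them fell and 0 rose by limma (10 fell without KO C, without fl A or without fl B). In Gr_1 against fl 12 fell and 0 rose. Csf1r, the receptor for the monocyte growth factor CSF1, was at 105 ± 2.69 FPKM in fl, 47.1 ± 10.6 in KO and 39.0 ± 2.41 in Gr_1. A macrophage list of 12 genes summed to between 337 and 414 FPKM in fl, 232 and 238 in KO, and 203 and 223 in Gr_1. Of its 8 tested genes 4 fell and 0 rose in KO against fl (2 fell without KO C, without fl A and without fl B), and 4 rose and 4 fell in Gr_1 against fl. A dendritic list of 9 genes summed to between 206 and 246 FPKM in fl, 125 and 130 in KO, and 68.6 and 89.0 in Gr_1. Its calls, given below, went both ways. The part of these lists in the Mmp19 level was not tested.

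Early granulocyte genes did not follow the granule metalloproteinases. The 8 genes of that list summed to between 5291 and 7461 FPKM in fl, 4678 and 8102 in KO, and 956 and 1097 in Gr_1. Between KO and fl 0 of the 8 were called by limma or voom, 0 also at an unadjusted p under 0.05, and 7 fell in Gr_1 against fl. Among markers of other cells, B and plasma cell genes summed to between 248 and 286 FPKM in fl, 213 and 263 in KO, and 657 and 729 in Gr_1, where 9 of 9 rose against fl. Between KO and fl 0 of the 9 were called by limma or voom, and 2 had an unadjusted p under 0.05. T cell genes stayed between 2.71 and 13.3 FPKM in sum in all libraries, and 3 of the 4 tested rose in Gr_1 against fl. Of 6 NK cell genes 4 fell there, and of 11 eosinophil, basophil and mast cell genes 4 fell, with 0 higher in either list. In the same comparison 1 dendritic cell gene of 6 rose and 4 fell, 1 progenitor gene of 4 fell, and the 3 tested stromal genes rose. Dropping any single Gr_1 library left only 1 stromal gene tested. Among those fits it was called higher only in that lacking Gr_1 B. The stromal genes lost reached the filter only through Gr_1, so their calls are no support for a difference. From fl to KO, 4 of the 4 tested T cell genes (3 of 3 without KO C), 4 of 6 NK cell genes (1 of 4 without KO C), 6 of 11 eosinophil, basophil and mast cell genes (2 without KO C), 3 of 10 erythroid and platelet genes (0 of 9 without KO C), 2 of 4 progenitor genes (1 without KO C) and 1 of 3 stromal genes (0 without KO C) rose, and none of these fell. Of 6 dendritic cell genes 1 rose and 2 fell (0 and 1 of 5 without KO C), and of 2 epithelial genes 0 were called by limma, 2 at an unadjusted p under 0.05 and 1 by voom. Without KO A, KO B or KO C only 3 T cell, 4 NK cell and 5 dendritic cell genes were tested. The genes lost passed the filter only through KO, so a call of theirs is no support for a difference. Leaving out other libraries also moved these counts: NK cell genes to 2 without fl A, fl B, fl C or KO B, eosinophil, basophil and mast cell genes to 2 without fl A or fl B, erythroid and platelet genes to 1 without fl A, progenitor genes to 1 without fl A, fl B, KO B, Gr_1 A or Gr_1 B and to 4 without KO A, and stromal genes to 0 without fl A, fl B, KO B or Gr_1 A. Dendritic cell genes gave 1 higher and 1 lower without fl A, 2 and 1 without fl C, and 0 and 2 without KO B. Without KO A, 1 epithelial and 1 macrophage gene were called higher and 1 B cell gene lower, and without fl C 1 epithelial gene was called higher.

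Mmp8 stood alone in its genomic cluster. On chromosome 9 it lies among 9 other metalloproteinase genes: Mmp13, Mmp12, Mmp1b, Mmp3, Mmp1a, Mmp10, Mmp27, Mmp20 and Mmp7. Of these, 3 (Mmp1a, Mmp3 and Mmp20) had 0 fragments in all 9 libraries. Mmp27, whose start lies 12.9 kb from that of Mmp8, was the highest of the neighbours, at 0.187 ± 0.0390 FPKM in fl, 0.419 ± 0.155 in KO and 1.17 ± 0.310 in Gr_1. Its highest library held 51 fragments, while the highest Mmp8 library held 52722. Mmp13, the interstitial collagenase of the mouse, reached 0.467 FPKM with 20 fragments in its highest library. The remaining neighbours had at most 2 fragments in any library.

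Beyond the members, few genes of the protease family were detected. The rest of the metalloproteinases, ADAM and ADAMTS proteases and metalloprotease inhibitors make 80 genes, of which 68 never reached 1 FPKM, 21 had 0 fragments everywhere and 7 could be tested. In KO against fl, 2 of the 7 rose and 1 fell, but limma called 0 without KO C (2 at an unadjusted p under 0.05) or with the 6 libraries of the comparison alone, and 1 without fl A, without fl C and without KO B. Of all genes tested, 4.48% were called higher and 6.52% lower in KO against fl. Reck, a membrane-anchored inhibitor of metalloproteinases, rose from 2.83 ± 0.403 FPKM in fl to 4.50 ± 0.581 in KO (log2 change 0.52, limma adjusted p = 0.0125, 0.0530 without KO C). The other call upwards was Adamdec1, a secreted ADAM relative at 0.626 ± 0.288 FPKM in fl and 1.85 ± 0.544 in KO. It passed the filter only through its KO libraries, so this call is no support for a difference, and it was not made without fl A or without fl C. Adam15, a membrane ADAM, fell from 16.9 ± 0.398 to 12.1 ± 1.94 FPKM (log2 change -0.46, limma adjusted p = 0.0344), a call made in 3 of the 9 fits that each left out 1 library.

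In Gr_1 against fl, 2 of the 7 family genes rose and 2 fell, beside 30.0% of all genes called higher and 31.4% lower. The 7 genes were called about as often as all genes, so nothing about the family is read from these counts. Reck rose to 11.4 ± 0.230 FPKM (log2 change 1.70, limma adjusted p = 3.59e-06). Adamtsl4, an ADAMTS relative without a protease domain, rose from 1.08 ± 0.0832 to 2.77 ± 0.309 FPKM (log2 change 0.85, limma adjusted p = 0.000623). Mmp28, which encodes epilysin and was the only other metalloproteinase tested, fell from 2.34 ± 0.149 to 0.574 ± 0.0940 FPKM (log2 change -1.08, limma adjusted p = 4.77e-05). Adam9, a membrane sheddase, fell from 7.87 ± 1.09 to 4.95 ± 0.502 FPKM (log2 change -0.57, limma adjusted p = 0.00198). The other tissue inhibitors were all under 1 FPKM: Timp1 averaged 0, 0.0378 and 0.203 FPKM in fl, KO and Gr_1, Timp3 averaged 0.0238, 0.0695 and 0.263, and Timp4 had 1 fragment in all. Timp2 was thus the 1 TIMP gene with a level that could be fitted.

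Genes whose products activate, escort or clear the proteases were rarely called in KO against fl, as were all genes tested. Of 20 listed, 13 were tested, and 0 rose and 1 fell by limma. At an unadjusted p under 0.05, 1 was higher and 3 lower, and voom called 1 higher and 1 lower. The gene that fell was Lrp1, an endocytic receptor that takes up metalloproteinases and their inhibitors and also a member of the monocyte list, at 38.3 ± 1.93 FPKM in fl and 14.2 ± 2.97 in KO (log2 change -1.38, limma adjusted p = 0.00104). In Gr_1 against fl 5 rose and 4 fell, beside 30.0% of all genes called higher and 31.4% lower. Lcn2, whose product binds MMP9, rose from 775 ± 28.9 to 3138 ± 100.3 FPKM (log2 change 2.02, limma adjusted p = 1.94e-05). Plaur, the urokinase receptor, rose from 113 ± 4.04 to 329 ± 46.6 FPKM (log2 change 1.53), and Rhbdf2, which encodes the partner that brings ADAM17 to the cell surface, from 11.9 ± 0.479 to 32.8 ± 1.37 FPKM (log2 change 1.39). Adam17 itself overlapped between these groups, through fl C only. Lrp1 fell to 6.99 ± 1.11 FPKM (log2 change -2.31), Tspan17, a tetraspanin that escorts ADAM10, from 7.30 ± 1.34 to 4.36 ± 0.169 FPKM (log2 change -0.62), and the tetraspanin Cd63 from 147 ± 13.2 to 98.3 ± 4.61 FPKM (log2 change -0.57). The median log2 change of the 13 was -0.06 in KO against fl and 0.12 in Gr_1 against fl.

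Genes for surface proteins that ADAM10 or ADAM17 are known to release shifted while the 2 sheddases overlapped between groups. For Adam17, fl overlapped the other groups only through fl C. Of 26 listed, 17 were tested. Between fl and KO 1 rose and 7 fell, or 0 and 5 without KO C, without fl A and without fl B, with a median log2 change of -0.21 beside -0.01 for all genes. Of all genes tested, 4.48% were called higher and 6.52% lower. Il6ra, the interleukin 6 receptor, fell from 36.9 ± 1.46 to 18.7 ± 1.90 FPKM (log2 change -0.94, limma adjusted p = 0.000522). Tnfrsf1b, a TNF receptor, fell from 107 ± 4.50 to 56.5 ± 6.86 FPKM (log2 change -0.91, limma adjusted p = 0.000903), and Trem2, a receptor of macrophages, from 3.10 ± 0.454 to 1.14 ± 0.0800 FPKM (log2 change -0.93, limma adjusted p = 0.00104). Csf1r, Aplp2, Notch2 and Icam1 were the others that fell. Of the 9 fits that each left out 1 library, 2 called Notch2 and 4 called Icam1, and neither was called without KO C. Il1r2, the decoy receptor for interleukin 1, rose from 16.8 ± 1.46 to 35.5 ± 10.1 FPKM (log2 change 1.003, limma adjusted p = 0.0222), a call that was lost without fl A, fl B, KO A or KO C.

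In Gr_1 against fl, 8 of the 17 shed proteins' genes rose and 7 fell, beside 30.0% of all genes called higher and 31.4% lower. Il1r2 rose to 110 ± 27.9 FPKM (log2 change 2.62), and the receptor gene Notch1 from 13.8 ± 1.36 to 31.4 ± 1.83 FPKM (log2 change 1.13). Tnfrsf1b fell to 38.0 ± 2.20 FPKM (log2 change -1.46), Trem2 to 0.630 ± 0.0351 (log2 change -1.32) and Aplp2, a relative of the amyloid precursor gene, from 21.0 ± 1.14 to 11.7 ± 0.167 (log2 change -0.79). Csf1r is also a gene of the monocyte list.

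Other cargo of the neutrophil granules was mostly called in Gr_1 against fl, as were most genes tested. The granule calls there were mostly higher, while those of all genes were split between higher and lower. The cargo was rarely called in KO against fl, as were all genes tested. Of 16 genes listed for specific and gelatinase granules, members left out, 15 were tested. From fl to KO 1 rose and 0 fell, beside 4.48% of all genes called higher and 6.52% lower, with a median log2 change of 0.16. Without KO B, 6 rose, and voom on recovered fragments called 4 higher and 0 lower. Before adjustment, limma had 5 higher and 1 lower at p under 0.05. The gene called was Olfm4, for a protein of a subset of specific granules, at 18.8 ± 4.18 FPKM in fl and 49.2 ± 3.78 in KO (log2 change 1.36, limma adjusted p = 0.00135). The log2 change of Lcn2 was 0.63 (limma adjusted p = 0.0511), that of the lactoferrin gene Ltf 0.60 (limma adjusted p = 0.117), and that of the cathelicidin gene Camp 0.06 (limma adjusted p = 0.869). In Gr_1 against fl 12 rose and 1 fell, beside 30.0% of all genes called higher and 31.4% lower, with a median of 1.161. Cd177, a neutrophil surface protein, rose from 423 ± 37.1 to 1391 ± 61.3 FPKM, Mcemp1 from 125 ± 4.51 to 393 ± 4.73 and Olfm4 to 93.5 ± 13.7. Fcnb, a ficolin of early granulocytes, fell from 1175 ± 128 to 333 ± 18.3 FPKM.

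**Figure D4:**
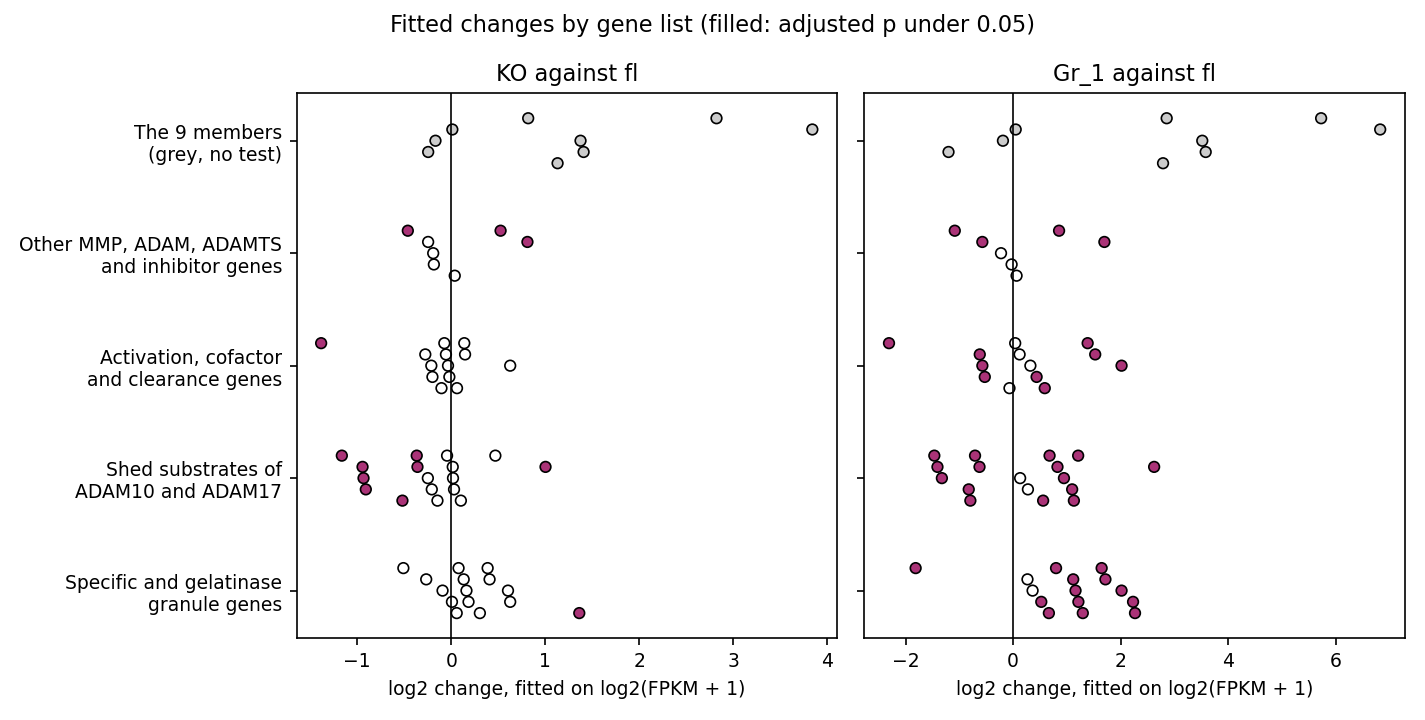
Log2 change of each tested gene in the wider lists, for KO against fl and Gr_1 against fl, 1 point per gene and filled where the limma adjusted p was under 0.05, with the members in grey and without a test. In KO against fl 1 of 15 granule genes and 8 of 17 shed protein genes are filled, and in Gr_1 against fl 13 and 15. Of all genes tested, 4.48% were called higher and 6.52% lower in KO against fl, and 30.0% and 31.4% in Gr_1 against fl.

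The genes with the profile closest to that of Mmp9 were searched among all tested non-members over the 9 libraries, by the root mean square difference of log2(FPKM + 1) after centring each gene on its own mean. They were Fpr1, the formyl peptide receptor of neutrophils (0.322 log2 units), Stfa2l1, a stefin (0.337), and Ly6g (0.368), while Mmp9 itself varied by 2.81 around its mean. All 3 belong to the late neutrophil list. Fpr1 averaged 1.12, 19.6 and 153 FPKM in fl, KO and Gr_1, and Stfa2l1 0.189, 26.3 and 201. The added 1 FPKM compresses such low fl values, so a small distance does not mean an equal fold difference. The closest to Mmp14 were Sptb (0.0931), Med30 (0.102) and Ttll1 (0.104), where Mmp14 varied by 0.304. The closest to Adam10 were Ppm1k (0.0325), Tent4b (0.0370) and Zc3h13 (0.0372), where Adam10 varied by 0.103. These are distances over 9 libraries that share groups and scaling, given as a description.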

How the data were processed

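Paired-end Illumina sequencing of total RNA is described in the protocols, per the labels. The authors deposited FPKM per Ensembl gene; featureCounts 1.5.0-p3, DESeq2 1.16.1 and the builds mm10 and GRCm38 stand in the submitters' processing notes, and the aligner and counting strand are not given in the sources used here. Members and gene lists were chosen with earlier results of these data known. Of 54532 gene IDs, 54495 matched GENCODE M21, which gave names, positions and exon lengths. FPKM times exon length gave whole fragments, within 0.02, for over 97% of values under 1000 fragments in each library. Genes with at least 1 FPKM in at least 3 libraries (12289) entered limma 3.58.1 (R 4.3.3) on log2(FPKM + 1) with an intensity trend, all 9 libraries in 1 fit (6 residual degrees of freedom) and Benjamini-Hochberg adjustment over all genes, called under 0.05. The code was checked on simulated data.

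Named were all members, Socs3, Lyz2, Ly6g, Csf1r, up to 3 called genes per direction with the smallest adjusted p in each wider list and comparison, and the nearest profiles; the most abundant markers, also in the rule, are given only within list sums. One gene that the rule names is not reported here. Adamdec1, Adam15, Mmp27, Mmp13, Timp1, Timp3, Timp4, Ltf, Camp, Notch2, Icam1, Tmem198b, Iah1 and the sex-linked genes were named to state counts, neighbours or checks. Alternatives were another pseudocount, other filters, 2 other scalings, the compared libraries alone, a block for the letter, voom on recovered fragments and leaving out each library. The depth value that the FPKM imply was not the total of recovered fragments. In Gr_1 A, B and C it was 16.0, 18.2 and 16.0 M, below the 19.0, 21.5 and 18.6 M fragments recovered. In each fl and KO library it lay above the recovered fragments, as in fl A with 22.0 M against 20.8 M. Gr_1 levels thus stand higher against fl and KO than under scaling to recovered fragments. A few very abundant genes can also shift all others.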

Additional observations from a re-analysis of the deposited data

How the results depend on the processing

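No member's log2 difference that was called changed sign in any alternative. Of 456 recomputed member differences, 426 stayed within the spread between replicates and 30 moved, and the cause was not tested. The members called numbered between 5 and 6 in KO against fl, and between 6 and 8 in Gr_1 against fl and in KO against Gr_1. Over all genes, 1352 were called in KO against fl, 794 with the 6 compared libraries alone, and between 573 (without KO C) and 1261 with 1 library left out, including 818 without fl A and 730 without fl B. For the other metalloproteases and inhibitors, KO against fl gave 3 calls, 1 with no filter, 0 with the 6 libraries alone, and between 0 and 3 with 1 library left out. Gr_1 against fl gave 4 calls, 19 with no filter and 2 with a filter of 5 FPKM. Rescaling without the 10 most abundant genes changed the split of calls from 551 higher and 801 lower to 812 and 577 in KO against fl, from 3686 and 3864 to 3081 and 4586 in Gr_1 against fl, and from 3287 and 3556 to 4800 and 2560 in KO against Gr_1; it moved the median log2 change of all genes by 0.07, -0.08 and 0.15. The letters A, B and C pair nothing that the labels name, and same-lettered libraries had deviations correlated between -0.0618 and 0.140. With a replicate block for the letter, 1037 genes were called in KO against fl, 7280 in Gr_1 against fl and 6469 in KO against Gr_1, with 6, 7 and 7 members called. With 5 FPKM as the filter Mmp19 had no value, and Mmp14 was fitted only with no filter. Depth limits Mmp14 and, in Gr_1, Mmp19, and recovered fragments carry counting error only.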
